A study of Mus musculus with 25 samples.

Results

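Saa3 Lcn2 fibroblasts were defined as lung mesenchymal cells that carried many transcripts of 2 secreted acute-phase genes, Saa3 and Lcn2. They were picked from the single-cell matrices by measured unique molecular identifiers (UMIs, each 1 captured transcript): at least 5 UMIs of Saa3, at least 2 of Lcn2 and at least 1 of Pdgfra, the PDGF receptor that marks lung fibroblasts. Cells with 2 or more UMIs of Cthrc1 (profibrotic fibroblasts), 3 or more of Pi16, Scara5 and Entpd2 together (adventitial fibroblasts) or 5 or more of Hhip (ductal and airway myofibroblasts) were left out. So were cells with any UMI of Upk3b (mesothelium), Cdh5 (endothelium) or Epcam (epithelium). Of 12059 cells that held 200 to 7500 genes and no more than 20% mitochondrial UMIs, 122 met the rule. Because UMIs chose the members, the levels of these 11 genes are given as description only.

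Serum amyloid A3 and lipocalin 2 are innate immune proteins that many cells secrete when cytokines such as IL-1, TNF and IL-6 activate NF-kB, C/EBP and STAT factors. Serum amyloid A binds lipids and attracts leukocytes, and lipocalin 2 binds bacterial siderophores and so withholds iron. In injured lung, fibroblasts are a known source of chemokines and acute-phase proteins as well as of matrix.

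All mice carried a tamoxifen-inducible Cre driven by the Col1a1 promoter and 2 floxed Fas alleles (Col1a1-Cre-ERT2;Fas fl/fl). The groups were naive mice, and mice harvested at 3 or 6 weeks after a single intratracheal bleomycin instillation that had been injected with corn oil (Fas+/+) or with tamoxifen (Fas-/-), so loss of Fas and tamoxifen cannot be told apart. Lung cells were sorted as Lin- cells, negative for CD45, CD31 and CD326, which depletes leukocytes, endothelium and epithelium. Each of the 5 conditions had 1 single-cell library, a pool of 4 mice with 5615583 (naive) to 35004216 UMIs in the cells kept, and 4 bulk RNA-seq libraries. Recombination can occur only in cells with an active Col1a1 promoter, and neither kind of count separates the floxed exon, so which cells had lost Fas was not analysed here. With 1 single-cell library per condition there was no replicate check and no test between single-cell conditions, and their intervals (95%) cover counting error only.

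Several properties of the libraries bear on every value given here. First, the week labels of the 2 assays ran in opposite directions. Over 2987 genes above 50 CPM (counts scaled to a common library total) in at least 1 library or group mean of each assay, the log2 ratio of week 6 to week 3 in whole single-cell libraries correlated negatively with the same ratio in bulk, with a Pearson r of -0.95 for Fas+/+ and -0.57 for Fas-/- (Spearman -0.91 and -0.62, across genes, which are not independent). All 171 genes that changed by at least 1 on the log2 scale in both assays did so in opposite directions for Fas+/+, as did all 26 for Fas-/-. Spp1, which encodes the matricellular protein osteopontin, reached 286 CPM in the single-cell library labelled week 3 Fas+/+ and 3874 in that labelled week 6 Fas+/+, whereas its bulk group means were 1728 and 165 CPM. For Fas-/-, the single-cell levels of Spp1 were 438 and 7815 CPM, and the bulk means were 1665 and 157. With each gene centred over the 4 bleomycin conditions of its assay, the single-cell library labelled week 6 Fas+/+ correlated with the bulk group labelled week 3 Fas+/+ at r = 0.94 and that labelled week 3 Fas+/+ with the bulk group labelled week 6 Fas+/+ at r = 0.87. The library labelled week 3 Fas-/- correlated at 0.83 with the bulk group labelled week 6 Fas-/-, and that labelled week 6 Fas-/- at 0.33 with the bulk group labelled week 3 Fas-/-. As background, lung fibrosis after a single bleomycin dose in mice is known to build up first and to resolve later. From the label week 3 to the label week 6, bulk means of Cthrc1 went from 44.5 to 3.92 CPM in Fas+/+ and from 25.9 to 13.2 in Fas-/-. In single-cell libraries it went from 14.6 to 118 and from 40.9 to 111 CPM. Which assay carries the weeks as meant cannot be told apart from these counts alone, so each library is called by its deposited label and the weeks are not compared across assays.

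**Figure D1:**
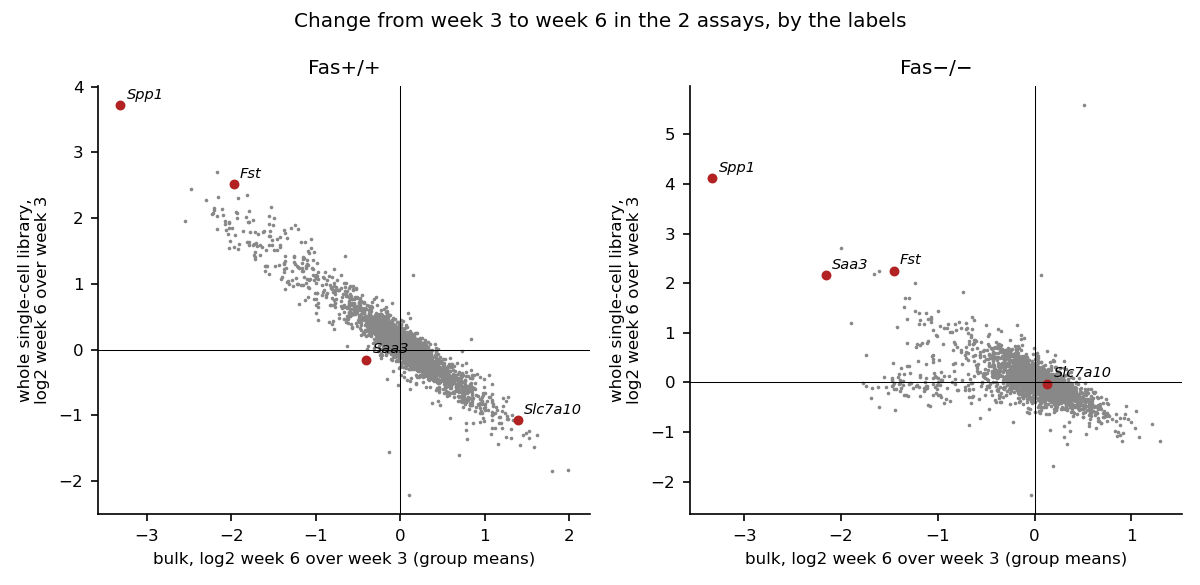
Each point is a gene, with the log2 ratio of week 6 to week 3 by the labels in bulk group means (x axis) and in whole single-cell libraries (y axis), for Fas+/+ (left) and Fas-/- (right). The clouds slope downward, with r of -0.95 and -0.57, so genes that were higher at one label in bulk tended to be lower at that label in single cells.

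Second, cell barcodes were shared between libraries. Of the 766 barcodes of the naive library, 378 also stood in another library, against 178, 402, 253 and 485 in the libraries labelled week 3 Fas+/+, week 3 Fas-/-, week 6 Fas+/+ and week 6 Fas-/-. The only naive member had a shared barcode, and no member of the other 4 libraries did. Pools also mixed cells with Xist, the noncoding RNA of the inactive X chromosome, and cells with Y-linked transcripts, in unequal numbers. In the library labelled week 6 Fas+/+, 27 members had Y-linked UMIs without Xist and 0 had Xist alone, although 274 and 266 other Pdgfra+ cells fell on these sides. In that labelled week 6 Fas-/- the members divided 50 to 3 and the other cells 559 to 290, whereas in that labelled week 3 Fas+/+ the division was reversed, with 2 members on the Y-linked side and 21 on the Xist side, as it was in the other cells, with 164 and 825. Scrublet marked 46 cells (0.381%) as doublets and none of the members. That share is too low for the caller to have worked, so no doublets were removed and the part of doublets in these cells was not tested.

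Members were present in each library, but in unequal numbers. The rule took 1 of 603 cells in the naive library (0.166%, Clopper-Pearson interval 0.00420 to 0.920). It took 26 of 2664 cells (0.976%, 0.639 to 1.43) in the library labelled week 3 Fas+/+ and 8 of 2608 (0.307%, 0.133 to 0.604) in that labelled week 3 Fas-/-. In the libraries labelled week 6 it took 30 of 3240 Fas+/+ cells (0.926%, 0.626 to 1.32) and 57 of 2944 Fas-/- cells (1.94%, 1.47 to 2.5). The Fas-/- library thus held the smaller share at one week label and the larger at the other, and the intervals of these shares of all cells did not overlap in either pair. As a share of the Pdgfra+ cells that passed every exclusion, members made up 0.375% in the naive library, 2.30% (1.51 to 3.35) and 0.684% (0.296 to 1.34) in the pair labelled week 3, and 4.41% (2.99 to 6.23) and 5.35% (4.07 to 6.87) in the pair labelled week 6, where the intervals overlapped.

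Depth differed alongside. The members' median total was 15076 UMIs against 10277 in the other Pdgfra+ cells of the library labelled week 3 Fas+/+. It was 30344 against 11772 in that labelled week 6 Fas+/+ and 24575 against 11105 in that labelled week 6 Fas-/-. After each cell was thinned to 3000 UMIs and shallower cells were left out, 0 of 493 naive cells, 16 of 2188 cells (0.731%) labelled week 3 Fas+/+, 3 of 1844 (0.163%) labelled week 3 Fas-/-, 18 of 2517 (0.715%) labelled week 6 Fas+/+ and 42 of 2171 (1.93%) labelled week 6 Fas-/- met the rule. The order of the 4 bleomycin libraries was the same as without thinning, but the intervals of the pair labelled week 3 then overlapped (0.419 to 1.18 and 0.0336 to 0.475).

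The thresholds cut a continuous range. Of 316 cells with at least 5 UMIs of Saa3, 188 also had at least 2 of Lcn2, 173 of these had Pdgfra, and the exclusions for Hhip and for the 3 lineage genes brought 168 to 122. Exactly 5 UMIs of Saa3 were found in 3 members, and exactly 2 of Lcn2 in 12. Just outside stood 4 cells with 4 UMIs of Saa3 and 24 with 1 of Lcn2 that met every other condition. Other cells passed the exclusions and carried only 1 of the 2 genes. At least 5 UMIs of Saa3 and no Lcn2 were found in 60 cells, and at least 2 of Lcn2 and no Saa3 in 100. Between 1 and 4 UMIs of Hhip, below the limit of the rule, were present in 68 members. The 7 ductal and airway muscle markers, Hhip included, summed to 172, 173 and 154 CPM in members against 268, 332 and 297 in other Pdgfra+ cells of the libraries labelled week 3 Fas+/+, week 6 Fas+/+ and week 6 Fas-/-. The rule held Hhip under 5 UMIs in both classes and members were deeper, so part of this difference is built in.

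Saa3 (ENSMUSG00000040026, chr7:46711998-46715700, minus strand, GENCODE on GRCm38) and Lcn2 (ENSMUSG00000026822, chr2:32384633-32388252, minus strand) varied widely among members. The median member had 43 UMIs of Saa3 (range 6 to 700) in the library labelled week 3 Fas+/+, 40.5 (9 to 72) in that labelled week 3 Fas-/-, 84.5 (5 to 623) in that labelled week 6 Fas+/+ and 96 (5 to 871) in that labelled week 6 Fas-/-. For Lcn2 the medians were 22 (2 to 194), 9.5 (2 to 44), 16.5 (2 to 187) and 40 (2 to 448) UMIs in the same order. The naive member had 71 UMIs of Saa3 and 4 of Lcn2. Members made up at most 1.94% of a library. They held 51.4%, 19.8%, 36.4% and 61.3% of its Saa3 UMIs in the same order, and 45.8%, 11.7%, 30.5% and 52.8% of its Lcn2 UMIs. The rule chose members by these UMIs, so a share of UMIs above their share of cells is built in. Summed over cells, Saa3 stood at 9941, 3381, 3832 and 6295 CPM in members and at 116, 30.1, 145 and 133 in other Pdgfra+ cells. In endothelial cells that had escaped the sort (at least 2 UMIs of Cdh5 and no Pdgfra), Saa3 was at 10.6, 1.81, 9.08 and 11.3 CPM. None of these cells met both UMI thresholds, which were not scaled to depth.

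**Figure D2:**
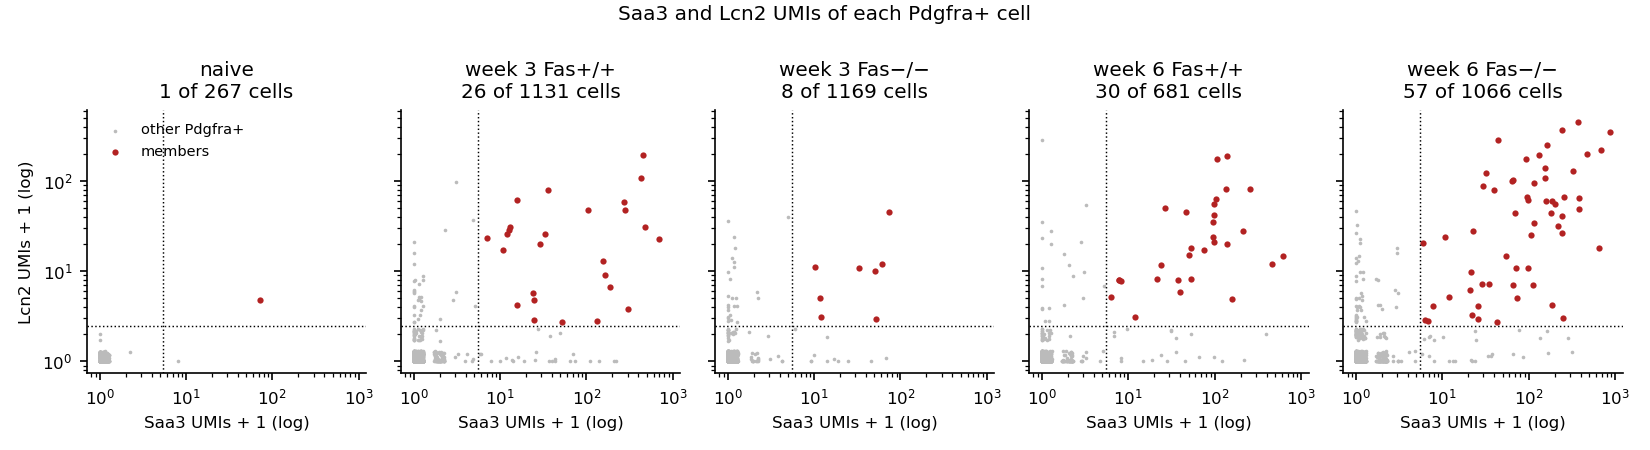
Each point is a Pdgfra+ cell, with its Saa3 UMIs (x axis) and Lcn2 UMIs (y axis) plus 1 on log axes, jittered slightly, in the single-cell libraries by label. Dotted lines mark the thresholds of 5 and 2 UMIs, and members are coloured; they spread up to 871 UMIs of Saa3 without a gap above the thresholds.

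The region before the start of each gene is shown for Saa3, Lcn2 and 2 further secreted genes of these cells, Ptx3 and Il6, because all 4 are textbook targets of C/EBP and NF-kB factors. Sequences are from RefSeq on GRCm38.p6 and run 5′ to 3′ on the gene's strand from 250 bases before to 50 bases after the start that RefSeq annotates. For Saa3 and Lcn2 this start lies inside the gene given above, since GENCODE places the first base of both further upstream, so another start would show another window. They lie at chr7:46715627-46715926 (minus), chr2:32387690-32387989 (minus), chr3:66219637-66219936 (plus) and chr5:30012864-30013163 (plus). Capitals mark matches to a C/EBP motif, TTNNGNAA, or to the NF-kB consensus, on either strand.
Saa3: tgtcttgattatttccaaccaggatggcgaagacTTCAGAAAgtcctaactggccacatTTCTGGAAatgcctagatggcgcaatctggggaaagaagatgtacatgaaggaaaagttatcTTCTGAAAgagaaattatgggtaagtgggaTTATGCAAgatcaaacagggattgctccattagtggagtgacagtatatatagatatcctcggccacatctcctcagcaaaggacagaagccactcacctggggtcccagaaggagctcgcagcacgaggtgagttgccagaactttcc
Lcn2: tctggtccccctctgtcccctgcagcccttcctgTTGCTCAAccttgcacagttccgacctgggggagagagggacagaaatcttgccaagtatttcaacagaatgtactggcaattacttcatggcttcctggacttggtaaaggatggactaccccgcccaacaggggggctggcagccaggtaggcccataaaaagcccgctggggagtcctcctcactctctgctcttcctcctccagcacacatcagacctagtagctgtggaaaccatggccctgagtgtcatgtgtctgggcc
Ptx3: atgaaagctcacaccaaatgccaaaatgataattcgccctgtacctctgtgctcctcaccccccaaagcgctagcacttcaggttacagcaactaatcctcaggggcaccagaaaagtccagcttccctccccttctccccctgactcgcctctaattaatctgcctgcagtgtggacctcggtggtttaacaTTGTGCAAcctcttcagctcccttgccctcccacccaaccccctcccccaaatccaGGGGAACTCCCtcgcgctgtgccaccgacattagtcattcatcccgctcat
Il6: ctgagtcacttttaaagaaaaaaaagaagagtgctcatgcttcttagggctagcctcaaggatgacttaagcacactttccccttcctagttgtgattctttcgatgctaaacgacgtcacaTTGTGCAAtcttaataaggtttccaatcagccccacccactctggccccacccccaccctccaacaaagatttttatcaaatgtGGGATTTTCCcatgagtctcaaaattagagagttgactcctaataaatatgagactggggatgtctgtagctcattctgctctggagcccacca
The Saa3 window held 4 C/EBP matches, between 216 and 99 bases before the start, and the Lcn2 window held 1. The Ptx3 and Il6 windows each held 1 C/EBP match, TTGTGCAA, and an NF-kB match; in Ptx3 the NF-kB matches overlapped each other at the start. None of the 4 windows held a STAT motif, TTCNNNGAA. The letters of a motif occur often by themselves: 40.7% of all 32851 windows held the C/EBP letters, 8.46% the NF-kB consensus and 8.30% the STAT letters. A match is a description of the sequence, and binding was not measured.

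The 5 genes listed as markers of these cells did not all follow their listing. Besides Saa3 and Lcn2, which the rule used, Mmp3, a matrix-degrading stromelysin, stood higher in members than in other Pdgfra+ cells of the same library, at 444 against 324, 655 against 281 and 715 against 244 CPM in the libraries labelled week 3 Fas+/+, week 6 Fas+/+ and week 6 Fas-/-. It was found in 10 of 26, 15 of 30 and 33 of 57 members, and 1 cell held 63.1% of its UMIs in the first of these libraries. Cpxm1, a secreted carboxypeptidase-like protein, was higher by 0.11, 0.48 and 1.58 on the log2 scale. Gdf10, a BMP-like ligand, went against its listing, at 50.5 against 73.8, 28.2 against 51.7 and 30 against 50.2 CPM. The cells are therefore called by the 2 genes of their rule.

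Members were next set beside the other Pdgfra+ cells that passed the same exclusions, within each of the 3 libraries with at least 20 members, by the log2 ratio of summed UMIs in CPM with a pseudocount of 10 CPM. This contrast lies within a library and does not use the week labels. Since the cells had been chosen by UMIs of 2 genes in these same counts, the ratios are a description and no test was made. Of 6352 genes past a mean level of 20 CPM and not used by the rule, 55 (0.866%) had a median ratio of 1 or more and were higher in each library, and 78 (1.23%) had one of -1 or less and were lower in each. The median over all 6352 genes was -0.09.

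The acute-phase genes stood out beyond the 2 of the rule. Of 8 further members of a list of acute-phase proteins that passed the level, 6 were among the 55 and none among the 78, with a median log2 ratio of 1.66. Hp, the hemoglobin-binding haptoglobin, was at 1037 against 144, 2729 against 604 and 2209 against 447 CPM. Serpina3n, a secreted protease inhibitor, was at 1055 against 287, 1510 against 444 and 1443 against 444. Both therefore stood at several times the level of the other cells in each library, while Cp (ceruloplasmin) and Lbp (which presents lipopolysaccharide) were higher by medians of 0.84 and 0.94 and did not reach the threshold. Ptx3, a soluble pattern-recognition pentraxin, had a median ratio of 2.68, but only 2 of 26, 2 of 30 and 4 of 57 members had a UMI of it, and 1 cell held 86.3% of its UMIs in the library labelled week 6 Fas+/+. Serpina3 family members and Saa1 are close paralogs, and their counts are uncertain for that reason.

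Chemokine genes formed the next group, with 6 of 12 that passed the level higher, none lower and a median of 1.48. Ccl2 and Ccl7, which attract monocytes through CCR2, had the 2 largest ratios not involving the rule, with medians of 3.08 and 3.41. Ccl2 was at 565 against 53.6, 644 against 67.4 and 506 against 151 CPM. Cxcl1, a neutrophil attractant, was at 101 against 22.2, 306 against 29.7 and 195 against 35.7. Cxcl10, an interferon-induced T cell attractant, was at 926 against 30.4, 182 against 59.2 and 322 against 132, but 1 cell held 68.9%, 93.5% and 50.6% of its UMIs. Cxcl12, the ligand of CXCR4, and Cxcl14 had smaller ratios from higher levels, with medians of 1.67 and 1.10. Cxcl5 was higher in 2 libraries and at 2.35 against 4.57 CPM in the library labelled week 6 Fas+/+, so it was not counted.

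Genes that handle cytokine signals changed less as a group. Of 14 genes of IL-6 and IL-1 family signaling, Il6 was higher (median 2.43) and Il11, a profibrotic relative of Il6, was lower (-1.23), with a median over the list of 0.44. Il6 was at 111 against 4.65, 215 against 75.8 and 166 against 22.6 CPM. Of 13 NF-kB and C/EBP factors and feedback genes, Steap4 alone reached the threshold (1.12), with a list median of 0.51. Of 18 interferon-stimulated genes, Iigp1 alone did (1.04), with a list median of 0.60, and none of 12 MHC class I genes did, with a median of 0.38. Of 12 complement genes, Cfb, the factor B of the alternative pathway (1.79), and C3 (1.11) were higher. C3 stood at 3346 against 1015, 1394 against 903 and 1883 against 870 CPM.

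Metal-binding and stress genes were unequal. Mt1 and Mt2, metallothioneins that bind zinc and copper, were higher by medians of 1.84 and 2.08, with Mt2 at 1140 against 144, 1306 against 310 and 1686 against 392 CPM. Slc39a14, a zinc and iron importer (1.60), and Sod2, the mitochondrial superoxide dismutase (1.72), were higher too, whereas Gstm1, a glutathione transferase, was lower (-1.55). The list of 14 iron, metal and antioxidant genes had a median of 0.13. Slc16a1, a lactate transporter (2.21), Chl1, a cell adhesion molecule (2.18), Rgs16, a regulator of G protein signaling (1.95), Ch25h, the cholesterol 25-hydroxylase (1.93), and Ifi205 of an interferon-inducible family with close paralogs (2.19) completed the genes of largest ratio. Ptgs2, the inducible cyclooxygenase, was higher by 1.52, alone among 7 genes of prostaglandin and hyaluronan synthesis.

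**Figure D3:**
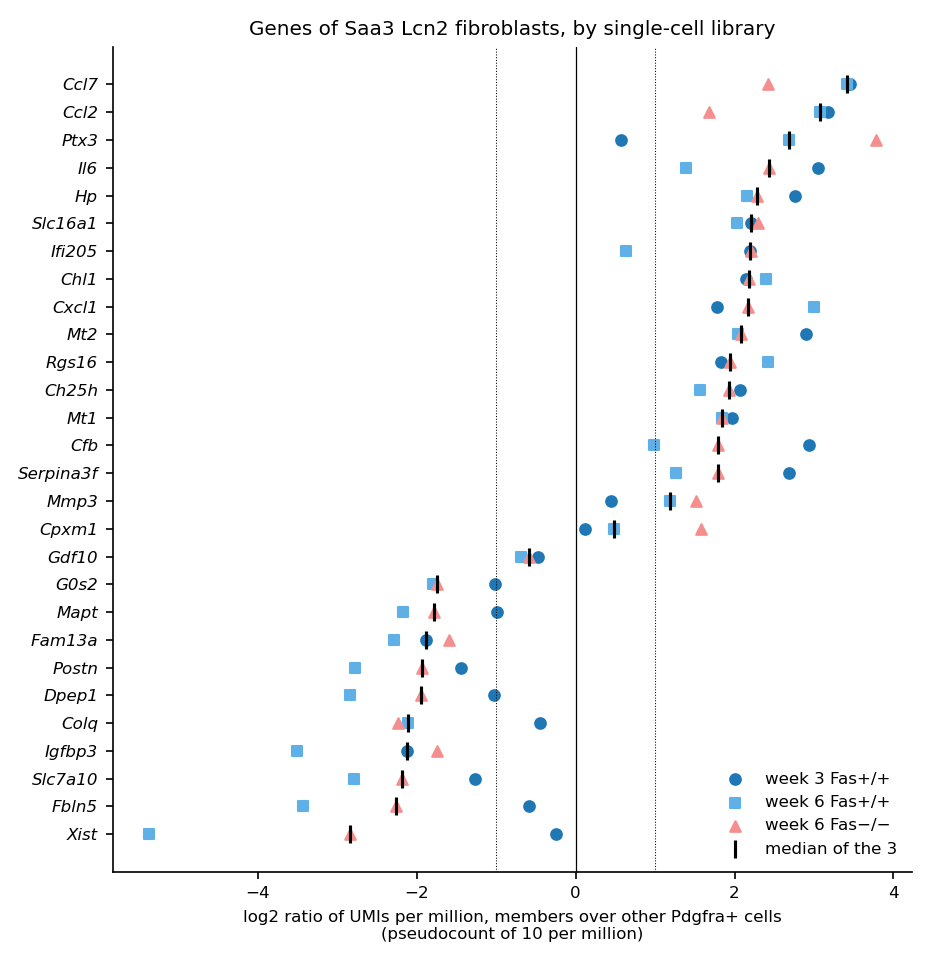
The x axis gives the log2 ratio of CPM in Saa3 Lcn2 fibroblasts over other Pdgfra+ cells (pseudocount of 10 CPM), with 1 point per single-cell library and gene. The 15 genes of highest median, from Ccl7 at 3.41 down to Serpina3f at 1.79, lie right of 0 in each library and the 10 of lowest median, from Xist at -2.84 to G0s2 at -1.74, lie left of 0, with Mmp3, Cpxm1 and Gdf10 between them.

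Matrix genes differed less, and in both directions. Of 15 collagen and profibrotic genes none reached the upper threshold, but 9 were positive in each library and the list median was 0.24. Summed over the list, in which Spp1 was the most abundant gene, the median member had 12762, 35196 and 23474 CPM against 9021, 14794 and 16136 in other Pdgfra+ cells. Postn, the matricellular periostin, was lower, at 10.1 against 44.5, 9.39 against 123 and 11.4 against 72.0 CPM. Col1a1 differed little, with ratios of 0.16, 0.03 and 0.12. Fbln5, an elastic fiber protein, was at 149 against 229, 7.05 against 174 and 30 against 182. Igfbp3, which binds insulin-like growth factors, was at 63.1 against 309, 11.7 against 236 and 25.7 against 110. Igfbp4 and Igfbp5 of the same family were higher, by 1.33 and 1.09. Ltbp4, which tethers latent TGF-beta to fibers, and Tgfb2 were lower by 1.23 and 1.19 among 24 genes of the BMP, activin and TGF-beta families. Of 15 metalloproteinases and inhibitors, Mmp3 and Timp1 (1.45) were higher and Timp3 lower (-1.51).

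Markers of alveolar fibroblasts and lipofibroblasts had a median of -0.50, and 3 of 14 reached the lower threshold. These were Tcf21, a transcription factor of the lipofibroblast lineage (-1.23), Inmt, a methyltransferase (-1.47), and Slc7a10, an amino acid transporter (-2.18). Inmt was still abundant in members, at 2276 against 4595, 755 against 2342 and 813 against 2272 CPM. Of 10 adventitial markers, Igfbp4 was higher (1.33) and the median was -0.05. Lum and Mustn1 were lower among 4 markers of ductal and airway muscle, Pdzd2 was lower by a median of 1.60 on the log2 scale between 2 pericyte markers, and 1 vascular smooth muscle marker past the level reached neither threshold. Among 13 Fas pathway and survival genes and 17 immediate early and dissociation genes none reached a threshold, with medians of -0.09 and -0.07. Fas itself was at 90.8 against 72.1, 74.0 against 67.2 and 82.1 against 70.2 CPM.

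Transcripts of other lineages were low. No gene of the mitotic, mesothelial, blood endothelial, lymphatic endothelial, epithelial, neutrophil, macrophage and red cell lists passed the level. Lcn2 is abundant in neutrophils, and the 9 neutrophil markers summed to 12.6, 27.0 and 54.3 CPM in members against 3.32, 14.2 and 14.9 in other Pdgfra+ cells of the 3 libraries. Mmp8 was their most abundant gene, while S100a9, Ly6g, Retnlg, Ngp and Il1b were at 0 in all members. Of 11 macrophage and other leukocyte markers 8 were at 0 in members, Ptprc and Adgre1 among them, and Lyz2 was the most abundant. The 8 blood endothelial markers summed to 15.1, 32.9 and 5.0 CPM in members and to 28.6, 44.5 and 11.5 in the other cells. Xist was lower in members, at 979 against 1167, 1.17 against 452 and 37.9 against 333 CPM. Members of the libraries labelled week 6 also held a larger share of Y-linked cells than the others, whereas in that labelled week 3 Fas+/+ 8.70% of the members told apart were on the Y-linked side against 16.6% of other Pdgfra+ cells.

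The profile was recomputed on cells with Y-linked UMIs and no Xist in the 2 libraries labelled week 6, with 27 and 50 members. There 42 genes were higher and 56 lower, 33 of the 42 were among the 55, and all 15 genes of highest ratio were positive. In cells of 5000 to 15000 UMIs, which left 10, 7 and 10 members, 107 genes were higher and 263 lower. At that depth 14 of the 15 genes remained positive, Ptx3 fell to -0.03 and Mmp3 stood at 0.00.

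The 15 genes also divided members among themselves. Hp was found in 34.6%, 83.3% and 93.0% of members against 21%, 35.3% and 37.8% of other Pdgfra+ cells and 1.09%, 6.74% and 7.58% of endothelial cells, whose median depths were 5629, 5544 and 4480 UMIs. At 3000 UMIs per cell the shares were 26.9%, 65.5% and 77.2% in members, 12.0%, 22.3% and 25.4% in other Pdgfra+ cells and 1.30%, 3.95% and 4.24% in endothelial cells. Hp was thus found in most members of the libraries labelled week 6 and in a minority of those labelled week 3 Fas+/+. Ccl2 was found in 46.2%, 33.3% and 40.4% of members and in 30.8%, 17.2% and 35.1% at 3000 UMIs, against 2.65%, 4.91% and 5.19% of other Pdgfra+ cells, so most members lacked a UMI of it. Summed over the chemokine list, the median member had 3032, 3333 and 3433 CPM and the range reached from 57.5 to 36109 in the library labelled week 3 Fas+/+. For the acute-phase list without Saa3 and Lcn2 the medians were 3395, 4816 and 5975 against 938, 1114 and 1373 in other Pdgfra+ cells.

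Set beside other fibroblast classes of the same libraries, members differed from each in its own way. Against Cthrc1+ profibrotic fibroblasts the median log2 ratio was -1.70 for Col1a1 and -4.28 for Postn, and 4.30 for Hp and 2.5 for Ccl2. Against adventitial fibroblasts Hp was higher by 4.73 and Ccl2 by 1.80, whereas Mmp3 was lower (-0.58). Of the 15 genes of highest ratio, 10 were higher than in adventitial fibroblasts by a median of 1 or more, but Ccl7 differed by 0.53 and Cfb by 0.03, and Ptx3 (-0.89) and Ifi205 (-1.28) were lower. Against Hhip+ cells all 15 had a median of 1 or more. The ratio was smaller than against adventitial cells for Hp (1.81) and Ccl2 (1.67) and larger for Ccl7 (2.21), Il6 (2.37) and Cxcl1 (2.54), and Col1a1 stood at 0.18. Hhip+ cells were also the class with the most Saa3, at 1057, 578 and 685 CPM, and 6 of 169, 9 of 162 and 20 of 278 of them met both UMI thresholds.

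Among the 38 of the 55 higher genes with a RefSeq window, 60.5% held the C/EBP letters, 26.3% the NF-kB consensus and 21.1% the STAT letters. For the 59 matched genes of the 78 lower genes the shares were 22%, 8.47% and 1.69%, and for the 5014 matched genes of the whole profile 30.5%, 10.6% and 6.64%. The median GC content of these windows was 57.5%, 61.3% and 62.0%. No test was made, and the part of base composition in these shares was not tested. Of the 15 genes of highest ratio 11 had a window, and Ccl7, Ccl2, Hp and Cfb had none.

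Between the 2 libraries labelled week 6, members of the Fas-/- library carried more transcripts of interferon-stimulated genes. Over 8573 genes with at least 20 UMIs in the members of the 2 libraries together, 80 (0.933%) were higher by 1 or more on the log2 scale in Fas-/- and 43 (0.502%) lower by as much. Of 21 interferon-stimulated genes 12 were higher and none lower, with a median of 1.18. In other Pdgfra+ cells of the same libraries 6 of them were higher, with a median of 0.71. Ifit1, an antiviral RNA sensor, was at 126 against 4.70 CPM and was found in 29 of 57 against 4 of 30 members, although 1 cell held 50.8% of its UMIs. Isg15, a ubiquitin-like modifier, was at 270 against 52.8 CPM and in 42 against 14 members. Irf7, a transcription factor that amplifies interferon responses, was at 148 against 12.9 and in 43 against 7. Interferon-stimulated transcripts thus stood higher across many members of that library, and not in 1 cell alone. Sfrp2 and Penk had the largest ratios, 3.73 and 3.45, but 1 cell held 99.1% and 93.4% of their UMIs.

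In the other direction, Lif, a cytokine of the IL-6 family, was at 52.9 CPM in Fas-/- against 283 in Fas+/+ members and was found in 20 of 57 against 17 of 30 of them. Grem1, a BMP antagonist (-2.27), and Tnfrsf11b, which encodes osteoprotegerin (-2.03), rested on 1 Fas+/+ cell that held 92.9% and 97.6% of their UMIs there. Ccl2, Ccl7, Il6 and Hp differed by -0.34, -0.31, -0.36 and -0.30, and Fas stood at 82.1 against 74.0 CPM. Each library is 1 pool, so these ratios compare 2 pools and not the genotypes.

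Between the Fas+/+ libraries labelled week 6 and week 3, 292 of 6967 genes (4.19%) were higher in the members labelled week 6 and 230 (3.3%) lower. Here the direction rests on the single-cell labels, which ran opposite to bulk. Spp1 was at 17665 against 35.3 CPM, and its ratio in other Pdgfra+ cells was 5.09 on the log2 scale against 8.61 in members. Fst, the activin-binding follistatin, was at 816 against 10.1 and Ereg, an EGF receptor ligand, at 180 against 2.52. Col1a1 and Col3a1 were higher by 1.07 and 1.05, and 9 of 14 collagen and profibrotic genes were higher, with a median of 1.07 in members and 1.04 in other Pdgfra+ cells. The matrix list thus had nearly the same median in members and in the cells around them.

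Interferon-stimulated genes had unlike medians in the 2 classes. In the members labelled week 6 Fas+/+, 14 of 18 were lower than in those labelled week 3 Fas+/+ and none was higher, with a median of -1.26, whereas in other Pdgfra+ cells none reached a threshold and the median was -0.01. Cfb was at 117 against 873 CPM and in 25 of 30 against 26 of 26 members, and C3 at 1394 against 3346. Of 9 genes of prostaglandin and hyaluronan synthesis 5 were higher and 1 lower, with a median of 1.05 against 0.39 in other cells. Members labelled week 6 were mostly on the Y-linked side and those labelled week 3 mostly on the Xist side, and Xist was at 1.17 against 979 CPM. The part of sex and of single mice in these ratios was not tested.

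**Figure D4:**
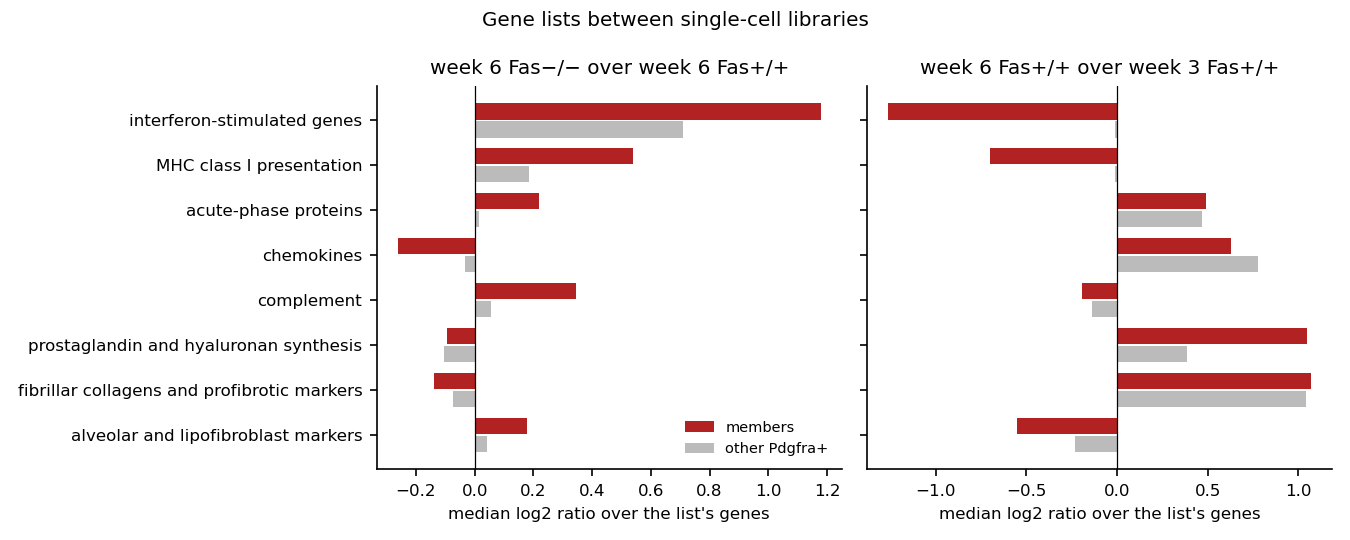
Bars give the median log2 ratio over each gene list's genes (x axis) between 2 single-cell libraries, separately in Saa3 Lcn2 fibroblasts and in other Pdgfra+ cells. The interferon-stimulated list stands at 1.18 and 0.71 in the comparison labelled week 6 Fas-/- over Fas+/+, and at -1.26 and -0.01 in that labelled week 6 over week 3 Fas+/+.

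The genes of these cells were then followed in bulk Lin- RNA, where each group had 4 libraries of 11819700 to 25189096 counts. In bulk, fewer cells of a type and less RNA per cell cannot be told apart, and genes of the profile are also expressed by other cells. The labels number the 4 libraries of a group as replicates and name no mice, so p-values measure the spread between these libraries. Of 47729 genes, 15773 were tested with edgeR's quasi-likelihood test and Benjamini-Hochberg adjustment at 0.05.

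Saa3 was almost absent from naive libraries, at 1.59, 1.32, 2.44 and 1.90 CPM, and rose in each bleomycin group. The libraries labelled week 3 Fas+/+ held 9.47, 94.0, 262 and 97.2 CPM, and those labelled week 3 Fas-/- held 133, 177, 130 and 159 CPM. The libraries labelled week 6 Fas+/+ held 7.59, 49.5, 214 and 45.5 CPM, and those labelled week 6 Fas-/- held 37.5, 20.7, 13.3 and 28.9 CPM. Every bleomycin library stood above every naive one, and the Fas+/+ groups spanned a far wider range than the Fas-/- groups. Bulk libraries also differed in sex transcripts. Among those labelled week 3 Fas+/+, the library with least Saa3, replicate 1, had a summed level of 4 Y-linked genes of 0.147 CPM and the other 3 had 110 to 127. Among those labelled week 6 Fas+/+, only replicate 4 had a high Y-linked level (111 CPM), and its Saa3 of 45.5 CPM lay below the 214 CPM of replicate 3, whose Y-linked level was 0.198. The Y-linked level was 82.7 to 144 CPM in the libraries labelled week 3 Fas-/-, and 142, 14.7, 2.09 and 104 in those labelled week 6 Fas-/-, where Saa3 had the same order. Against naive mice the log2 fold changes were 5.99 ± 0.97 (SE, adjusted p = 1.40e-04), 6.37 ± 0.98 (1.73e-04), 5.45 ± 0.95 (0.00202) and 3.80 ± 0.90 (0.0182) by edgeR, in the same order, and each exact permutation test gave 0.0286, the smallest p that 4 against 4 libraries allow. The last of these calls was lost without naive replicate 1 or 2, with an edgeR adjusted p of up to 0.0556. With the Y-linked level as a term the fold changes were 5.73, 6.10, 5.84 and 3.68, and each passed the test.

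Lcn2 followed the same course. It was at most 1.30 CPM in naive libraries and between 3.43 and 117 CPM after bleomycin, with the lowest value in the same library labelled week 6 Fas+/+ as for Saa3. The log2 fold changes against naive mice were 6.47 ± 0.96 (SE, edgeR adjusted p = 6.41e-05), 7.09 ± 0.97 (6.34e-05), 5.57 ± 0.94 (0.00157) and 4.96 ± 0.93 (0.00442). Between genotypes neither gene passed the test. Saa3 differed by 0.38 ± 0.74 (edgeR adjusted p = 0.916) at the label week 3 and by -1.65 ± 0.77 (0.600) at the label week 6, and Lcn2 by 0.62 ± 0.68 (0.842) and -0.61 ± 0.70 (0.954). In both pairs the groups overlapped.

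Of the other markers, Mmp3 was lower than in naive mice in both groups labelled week 3, with log2 fold changes of -0.59 ± 0.21 (edgeR adjusted p = 0.0277) and -0.57 ± 0.21 (0.0433), and did not pass at the label week 6. Gdf10 was lower, with changes of -0.51 ± 0.17 (edgeR adjusted p = 0.0237) and -0.48 ± 0.17 (0.0399) in the same groups. Cpxm1 was higher in the group labelled week 3 Fas+/+ only by this test, by 0.76 ± 0.29 (edgeR adjusted p = 0.0416). Between genotypes it did not pass, at -0.24 (edgeR adjusted p = 0.85) for the label week 3 and 0.34 (0.896) for the label week 6. Each of the calls of Mmp3, Gdf10 and Cpxm1 against naive mice was lost on leaving out single libraries, with edgeR adjusted p up to 0.131.

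**Figure D5:**
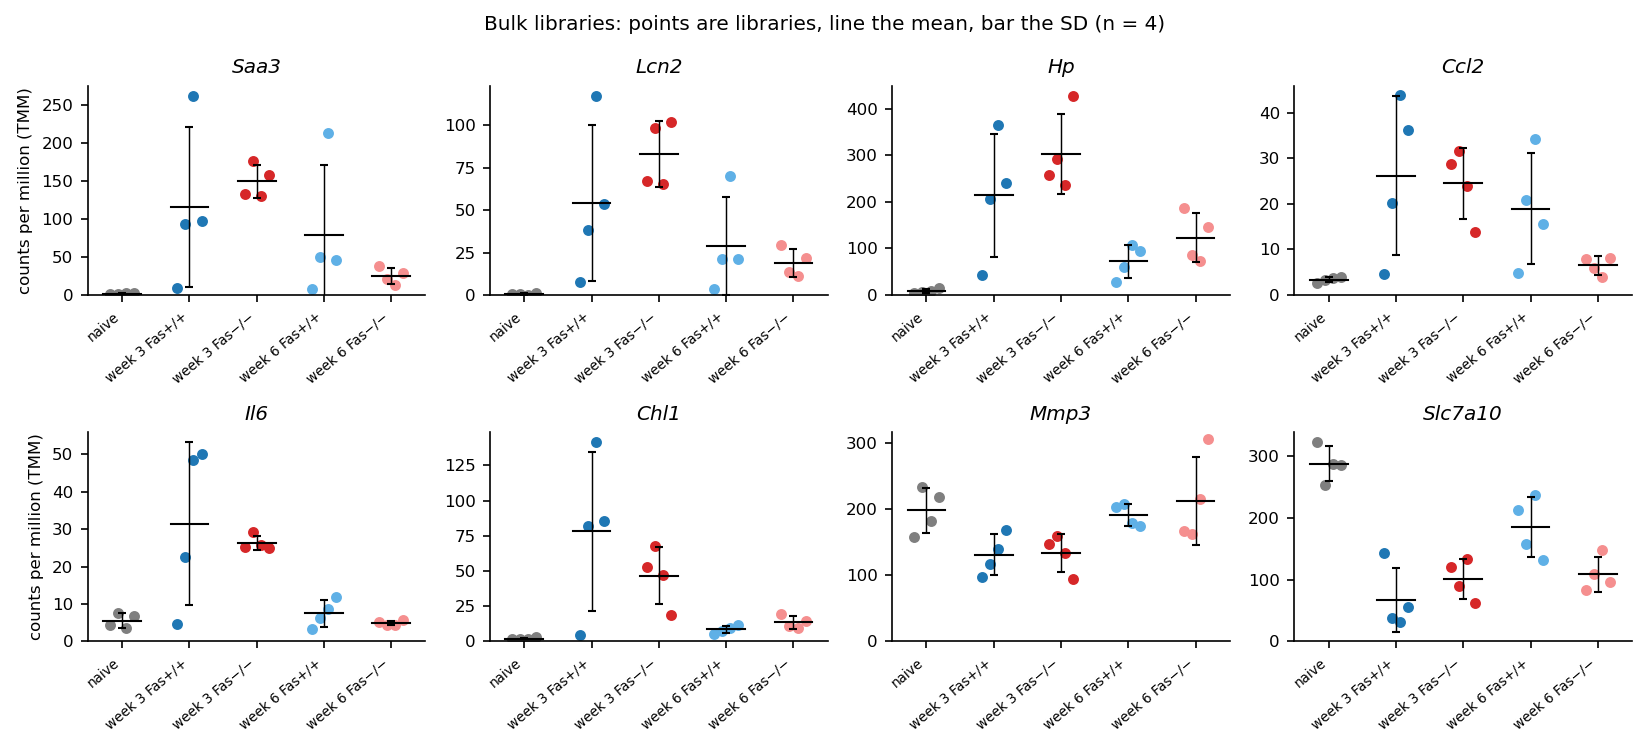
Points are bulk libraries in CPM with TMM normalization (y axis), by group label (x axis), with a line at the mean and a bar for the SD (n = 4), for Saa3, Lcn2, Hp, Ccl2, Il6, Chl1, Mmp3 and Slc7a10. Saa3 and Lcn2 are near 0 in naive mice, and the Fas+/+ groups spread from 9.47 to 262 and from 7.59 to 214 CPM for Saa3.

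The 55 genes higher in members were mostly higher in bulk at the label week 3. Against naive mice 43 of 55 were called higher in the group labelled week 3 Fas+/+, where 22.1% of all tested genes were, and 44 in that labelled week 3 Fas-/-, where 17.2% were. At the label week 6, 12 were called higher in Fas+/+ (3.57% of all genes) and 17 in Fas-/- (3.66%). The median log2 fold changes of the 55 genes were 1.78, 1.77, 0.95 and 0.87, against medians over all genes of at most 0.02. Of the 76 tested genes among the 78 lower in members, 59 were called lower at week 3 in Fas+/+ (19.2% of all genes) and 55 in Fas-/- (14.8%), and 6 (1.74%) and 14 (2.81%) were so at week 6. In the opposite direction, 3 and 2 of the 55 were called lower and 3 and 1 of the 76 higher at week 3. The counts at week 6 depended on single libraries and on the fit. In a fit to the 2 groups, 29 of 54 were called higher and 29 of 76 lower in Fas+/+, and 27 of 54 and 38 of 76 in Fas-/-. Over all genes this fit called 966 and 629 of 14908, and 645 and 650 of 14616. By DESeq2 the counts were 22 and 12, and 20 and 28, with 878 and 509, and 838 and 730, over all genes. The 12 became 23 and the 6 became 20 with the Y-linked level as a term, where 616 and 378 of all genes were called. The 12 became 7 without naive replicate 1 or 3, 6 without week 6 Fas+/+ replicate 3 and 19 without its replicate 1. The 17 became 7 or 9 without naive replicates 1 to 3 and 11 without week 6 Fas-/- replicate 2 or 4. The 6 became 3 without week 6 Fas+/+ replicate 2, and the 14 fell to 7 to 9 without any naive library or week 6 Fas-/- replicate 1, 2 or 4. Over all genes, leaving out single libraries gave 305 to 681 higher and 110 to 315 lower in Fas+/+, and 322 to 484 and 227 to 387 in Fas-/-. These 4 comparisons share the naive libraries.

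Haptoglobin also rose in each bleomycin group. Hp was at 4.48, 6.47, 8.21 and 15.3 CPM in naive libraries, and at 43.8, 207, 365 and 241 in those labelled week 3 Fas+/+. The libraries labelled week 3 Fas-/- held 257, 292, 237 and 428 CPM, those labelled week 6 Fas+/+ 28.4, 60.1, 106 and 93.5, and those labelled week 6 Fas-/- 187, 86.5, 73.3 and 145. No bleomycin group overlapped the naive one, and the log2 fold changes were 4.63 ± 0.60, 5.14 ± 0.61, 3.06 ± 0.56 and 3.83 ± 0.58 (SE, edgeR adjusted p = 1.86e-05, 2.12e-05, 0.00293 and 8.27e-04). Serpina3f rose in the same 4 groups, by 4.14, 4.21, 3.62 and 2.20. Ccl2 rose in 3 groups, by 2.95, 2.86 and 2.48, and in the group labelled week 6 Fas-/- its difference was 0.95 ± 0.57 (edgeR adjusted p = 0.366). Il6 rose only in the groups labelled week 3 among these tests, by 2.49 and 2.24, and stood at 0.42 and -0.17 at the label week 6. Chl1 rose by 5.26 and 4.52 at week 3 and by 2.74 in the group labelled week 6 Fas-/-, and Rgs16 by 4.66, 4.12 and 2.16 in the same groups, the last with an edgeR adjusted p of 0.0422 that became 0.0619 with a replicate block. Of the 10 genes of lowest ratio, Slc7a10 fell by 2.09 and 1.51 at week 3 and by 1.40 in the group labelled week 6 Fas-/-. Some of the calls at the label week 6 rested on single libraries. By edgeR, that of Ccl2 in Fas+/+ was lost without naive replicate 1 or week 6 Fas+/+ replicate 3 (adjusted p up to 0.0659). In Fas-/-, that of Serpina3f was lost without naive replicate 1 or 3 or week 6 Fas-/- replicate 4 (up to 0.0597), and that of Chl1 without naive replicate 1, 2 or 3 or week 6 Fas-/- replicate 1 (up to 0.0687). That of Rgs16 was lost without any 1 of the compared libraries but naive replicate 4 (up to 0.113), and that of Slc7a10 without any 1 but week 6 Fas-/- replicate 3 (up to 0.0872).

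The gene lists were also counted in bulk against naive mice, where 22.1%, 17.2%, 3.57% and 3.66% of all tested genes were called higher and 19.2%, 14.8%, 1.74% and 2.81% lower in the order week 3 Fas+/+, week 3 Fas-/-, week 6 Fas+/+ and week 6 Fas-/-. Of 12 acute-phase genes tested 10, 10, 6 and 7 rose in this order, with none lower. Of 16 chemokines 11, 11, 4 and 4 rose with none lower. Of 17 genes of IL-6 and IL-1 family signaling 12, 12, 1 and 4 rose and 2, 1, 0 and 0 fell, and of 15 NF-kB and C/EBP factors and feedback genes 10, 11, 4 and 2 rose with none lower. Of 14 MHC class I genes 12, 12, 9 and 5 rose with none lower.

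Of 21 interferon-stimulated genes 12, 18, 5 and 1 rose, and 1, 1, 0 and 2 fell. The 5 of week 6 Fas+/+ became 1 without naive replicate 3 or week 6 Fas+/+ replicate 2 or 3, 2 without naive replicate 2, 3 without naive replicate 4 and 11 without week 6 Fas+/+ replicate 1. They were 2 with a replicate block and 9 by DESeq2, while the list median stayed between 0.42 and 0.74.

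Other lists differed in direction. Complement genes, 2 of which were higher in members, were mostly not higher in bulk, with 1, 3, 3 and 4 of 14 called higher and 7, 3, 0 and 0 lower. Of 18 iron, metal and antioxidant genes 7, 7, 0 and 1 rose and 7, 4, 0 and 1 fell, and of 20 metalloproteinases and inhibitors 7, 8, 0 and 2 rose and 8, 7, 1 and 4 fell. Of 11 genes of prostaglandin and hyaluronan synthesis 3, 3, 1 and 1 rose and 1, 1, 0 and 0 fell, and of 26 genes of the BMP, activin and TGF-beta families 11, 8, 3 and 6 rose and 8, 8, 0 and 2 fell. Of 17 collagen and profibrotic genes 11, 8, 1 and 3 were called higher and 0, 2, 0 and 0 lower. Of 14 alveolar and lipofibroblast markers 12, 8, 2 and 2 were called lower and 0, 1, 0 and 0 higher, and of 15 adventitial markers 8, 8, 2 and 5 were called lower and 3, 2, 0 and 0 higher. Of 20 Fas pathway and survival genes 11, 9, 2 and 4 rose and 2, 1, 0 and 0 fell, and of 18 immediate early and dissociation genes 3, 2, 1 and 1 rose and 3, 0, 0 and 0 fell.

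Between genotypes, few or none of the member genes passed the test in bulk. At the label week 3, none of the 55 was called in either direction, against 0.165% of all genes higher and 0.00634% lower in Fas-/-, and 1 of the 76 was called higher. At the label week 6 none of either group of genes was called, against 0.0254% of all genes in each direction. At an unadjusted p under 0.05, 1359 and 1273 of all genes differed in these comparisons by edgeR. DESeq2 called 163 and 166 of all genes where edgeR called 27 and 8, and among them 7 of the genes lower in members, higher in Fas-/- at the label week 3, and 1 of the 55, lower in Fas-/- at the label week 6. Of 21 interferon-stimulated genes 8 were higher in Fas-/- at the label week 3 in bulk (median 0.76) and none at the label week 6 (median -0.22). The number of these calls depended on single libraries, while the median stayed between 0.67 and 0.84. None was called without week 3 Fas+/+ replicate 2 (median 0.74) or 3 (0.72), where edgeR called 0 genes of any kind and 1017 and 1146 differed at an unadjusted p under 0.05. Without week 3 Fas-/- replicate 1, 3, 2 or 4, 1, 4, 5 and 10 were called, and without week 3 Fas+/+ replicate 4 or 1, 7 and 11. The calls numbered 5 in a fit to the 2 groups, 6 with a replicate block, 9 with the Y-linked level as a term and 11 by DESeq2. Over all genes, leaving out single libraries gave 0 to 582 calls, the most without week 3 Fas-/- replicate 4 and 219 without week 3 Fas+/+ replicate 1. A test of the genotype difference between weeks called 1 of 15773 genes (1210 at an unadjusted p under 0.05) and none of the member genes named here.

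Transcripts of other cell types moved with these comparisons, and such cells can express genes of the profile. Against naive mice, 9, 8, 9 and 3 of 11 epithelial markers were called higher (medians 3.22, 2.18, 3.46 and 1.73), as were 5, 5, 2 and 0 of 6 tested macrophage and other leukocyte markers (3.44, 3.17, 2.96 and 0.10), 6, 6, 2 and 3 of 6 lymphatic endothelial markers (4.72, 4.14, 2.73 and 3.09) and 8, 7, 1 and 0 of 8 blood endothelial markers (4.70, 3.98, 2.56 and 2.35). Of 9 neutrophil markers 4 were tested, and 1, 1, 0 and 0 were called higher. Of 12 mitotic genes 12, 7, 0 and 0 were called higher and 0, 0, 0 and 1 lower. Called lower were 6, 5, 1 and 2 of 7 ductal and airway muscle markers and 6, 6, 0 and 0 of 7 pericyte markers. So were 4, 5, 0 and 0 of 6 tested vascular smooth muscle markers and 6, 5, 0 and 0 of 7 mesothelial markers. None of these muscle, pericyte and mesothelial markers was called higher. The epithelial sum, led by Ager, was 52.2 to 129 CPM in naive libraries and 142 to 1485 after bleomycin. The leukocyte sum, led by Lyz2, was at most 4.87 CPM in naive libraries and 4.28 to 138 after bleomycin. Summed CPM of 8 blood endothelial markers was 135 to 383 in naive libraries. It was 9163 in replicate 1 labelled week 3 Fas+/+, where Saa3 was lowest in its group, against 2543 to 3324 in the other 3 libraries, and 8300 in replicate 4 labelled week 3 Fas-/-, against 630 to 1109. Without these 2 libraries 47, 45, 34 and 27 of the 55 genes were called higher against naive mice and 67, 62, 25 and 42 of the 76 lower. The counts at week 6 thus grew although no week 6 library was left out. Calls over all 15952 genes grew too, to 4158, 3077, 1197 and 1265 higher and 3928, 2921, 904 and 1129 lower. In the genotype comparison labelled week 3, 38 of the 76 member-low genes were then called higher in Fas-/-, where 1 had been with all libraries, as were 406 of all 15952 genes. Without the first of these libraries alone 25 member-low genes were called higher, as were 185 of all 16013 genes. Without the second alone 11 were, and 281 of all 16011 genes. Without both, 1 of the 55 was called lower in Fas-/- at each week label, as were 196 of all 15952 genes at week 3 and 106 at week 6. Red cell markers summed to 2979 to 9589 CPM in naive libraries and to 17.1 to 235 elsewhere, and the part of these cell types in the comparisons with naive mice was not tested.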

How the data were processed

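The authors aligned bulk reads with Hisat2 to GRCm38 after skewer trimming, used htseq-count with Ensembl genes, and deposited raw counts and a size factor-normalized table that was not used here. For single cells they deposited Cell Ranger UMI counts of 31053 features, with 13900 barcodes, of which 12059 passed the filters here. The study's clusters were not used. The deposited tables held no column that matched no sample.

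Single-cell counts were summed over the cells of a class per library with Python 3.11.15, numpy 2.4.6 and pandas 2.3.3, and scaled to counts per common library total (CPM). Log2 ratios used a pseudocount of 10 CPM, and a mean of 20 CPM was required. Genes differing between conditions needed 20 UMIs. Intervals for shares are Clopper-Pearson (95%, scipy 1.17.1). Doublets were scored by Scrublet in scanpy 1.11.5, and figures were drawn with matplotlib 3.10.9. Bulk counts were fitted to all 20 libraries in R 4.3.3 with edgeR 4.0.16 (filterByExpr, TMM, quasi-likelihood test, Benjamini-Hochberg adjustment at 0.05), with two-sided exact permutation tests for single genes and DESeq2 1.42.0 as an alternative. Scripts were tested on simulated data.

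The members and gene lists were chosen with earlier results of these data known. Named singly were the 5 listed markers, the 15 genes of highest and 10 of lowest median ratio to other Pdgfra+ cells that met the threshold in direction in each library, the 5 highest and 5 lowest genes in a comparison of conditions, and members of the fixed lists. Genes of the label check, Spp1 among them, were picked after their values were seen. Replicate numbers were checked for pairing by the correlation of same-numbered deviations from the group means. Only for week 6 Fas-/- against naive were all 4 above 0.1 (0.165 to 0.315). There replicate 3 correlated more with a naive library of another number (0.178) than with that of its own (0.166), so these values do not settle a pairing. By the labels, samples of different groups shared only a number. Sequences are from RefSeq, and motifs were searched on both strands.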

Additional observations from a re-analysis of the deposited data

Results flagged for a closer look

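Of 105 groups of 4 bulk libraries examined, 7 held a library far from the other 3, where chance gives about 1 in 20. Summed CPM of blood endothelial markers was 9163 in replicate 1 labelled week 3 Fas+/+ (others 2543 to 3324), 8300 in replicate 4 labelled week 3 Fas-/- (others 630 to 1109) and 2647 in replicate 2 labelled week 6 Fas-/- (others 83.5 to 417). Cxcl1 was at 48.2 CPM in the same replicate 4 labelled week 3 Fas-/-, against 22.1 to 25.3 in the others. Slc16a1 was at 68.7 CPM in the same replicate 2 labelled week 6 Fas-/-, against 56.2 to 58.2. Ifi205 was at 26.6 CPM in replicate 4 labelled week 6 Fas-/-, against 4.86 to 7.62. Chl1 was at 2.99 CPM in naive replicate 4, against 1.64 to 1.77.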

How the results depend on the processing

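Of 246 alternatives for counts and shares, 196 stayed within 1.5 times the reported count or within the reported interval, and 50 moved. The 196 include counts of 0 that stayed 0, as in most fits between genotypes. Of 1688 for single genes, 1465 kept direction and call, 98 moved in size, 102 lost and 3 gained a call, and 20 changed sign. Few members (26 to 57 per library), 1 library per condition and the spread of the Fas+/+ bulk groups limit what these data resolve. The alternatives on shared barcodes, Y-linked cells, the Y-linked level in bulk, Scrublet calls and endothelial libraries were chosen after seeing the data.

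The naive share was 0 after thinning and 0 without shared barcodes. The profile of 55 higher and 78 lower genes became 31 and 28 with a pseudocount of 50, 44 and 45 with a minimum of 50 CPM, 92 and 142 as a mean over cells and 107 and 263 in cells of 5000 to 15000 UMIs, where Ptx3 (-0.03) and Mmp3 (0.00) lost their sign. Leaving out 1 library gave 60 to 84 and 72 to 98. Between the libraries labelled week 6 (80 and 43), a minimum of 50 UMIs left 25 lower genes, a pseudocount of 50 left 18 and 6, and a mean over cells gave 223 lower. Between the Fas+/+ weeks (292 and 230), the same minimum left 156 and 126 and the same pseudocount 78 and 72.

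In bulk, the 12 and 6 member genes called in week 6 Fas+/+ against naive became 22 and 12 with DESeq2, 29 and 29 in a fit to the 2 groups and 34 and 25 without the 2 libraries rich in endothelial markers. Calls over all genes moved too, from 563 and 274 of 15773 to 878 and 509 of 18731, 966 and 629 of 14908 and 1197 and 904 of 15952. The 17 and 14 of week 6 Fas-/- became 27 and 38 in the 2-group fit and 27 and 42 without those libraries, and DESeq2 called 28 lower. Calls over all genes went from 578 and 444 to 645 and 650 of 14616 and 1265 and 1129 of 15952. DESeq2 called 730 of 18171 lower. Without those libraries 1 member-low and 1 member-high gene were called lower in each genotype comparison, as were 196 and 106 of all 15952 genes at weeks 3 and 6. Saa3 (-0.04) and Gdf10 (-0.16) then changed sign at week 3. With the Y-linked level as a term, the 12 and 6 became 23 and 20, where 616 and 378 of all 15773 genes were called. Uncalled changes then turned sign for Mmp3 (0.06) and Gdf10 (0.07) in week 6 Fas+/+ against naive and for Mmp3 (-0.02) and Gdf10 (-0.04) between genotypes at week 3. The cause of these shifts was not tested. Leaving out single replicates gave 39 to 47 higher and 56 to 62 lower member genes for week 3 Fas+/+, 42 to 45 and 53 to 58 for week 3 Fas-/-, 6 (without week 6 Fas+/+ replicate 3) to 19 (without its replicate 1) and 3 to 7 for week 6 Fas+/+, 7 to 13 and 7 to 17 for week 6 Fas-/-, and between genotypes 0 to 0 member-high genes higher and member-low genes lower. Without week 3 Fas-/- replicate 4, 1 member-high gene was called lower in Fas-/-, as were 301 of all 16011 genes. Member-low genes higher in Fas-/- at week 3 numbered up to 25 without week 3 Fas+/+ replicate 1, where 185 of all 16013 genes were higher. Single replicates also turned the sign of uncalled changes. Between genotypes at week 3 the ranges were -0.01 to 1.16 for Saa3, -0.09 to 0.18 for Mmp3 and -0.13 to 0.23 for Gdf10, and at week 6 -0.98 to 0.32 for Lcn2 and -0.07 to 0.26 for Mmp3. Against naive mice Mmp3 ranged from -0.15 to 0.04 in week 6 Fas+/+ and from -0.12 to 0.20 in week 6 Fas-/-.

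With a replicate block the counts were 43 and 60, 44 and 56, 11 and 8, and 14 and 16 against naive and 0 and 0 between genotypes, where 3 member-low genes were called higher at week 3. Over all 15773 genes these fits called 3313 and 2979, 2487 and 2271, 499 and 255, and 494 and 421 against naive. Between genotypes at week 3, 44 of all genes were called higher. The block ended the calls of Cpxm1 in week 3 Fas+/+ (adjusted p = 0.0681), Mmp3 in week 3 Fas-/- (0.0643) and Rgs16 in week 6 Fas-/- (0.0619) by edgeR, and of no other named gene.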
